A study of Homo sapiens with 2 samples.

Results

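The poly(A)-binding protein genes were described in HEK293T cells, which derive from human embryonic kidney and express the large T antigen of SV40. The 6 genes PABPC1, PABPC1L, PABPC3, PABPC4, PABPC4L and PABPN1 were taken by symbol, with no threshold on a measured value, and all 6 were found among 57736 listed genes. Both libraries belonged to 1 group of wild-type cells that were exposed to 43 °C for 20 min, followed by recovery at 37 °C over 6 h, and the cells of replicate 1 and replicate 2 were lysed separately. Poly(A)+ RNA was sequenced with 50 bp reads. Untreated cells were not analysed here, so the values describe levels after heating and recovery, and no change caused by heating was measured.

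Poly(A)-binding proteins coat the adenosine tail that is added to the end of most messenger RNAs. The cytoplasmic proteins, named PABPC, hold the tail in contact with the translation initiation factor eIF4G at the cap and also recruit or restrain the enzymes that shorten the tail. The nuclear protein PABPN1 binds the growing tail, stimulates poly(A) polymerase and helps to set the tail length. Cytoplasmic poly(A)-binding protein is also a usual component of the stress granules that form in heated cells. The RNA measured here was purified through its tail, and the levels below are those of the mRNAs, not of the proteins.

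The libraries held 22529828 (replicate 1) and 26890199 (replicate 2) expected counts, the read numbers assigned to genes after reads with several positions had been shared among them. A floor of 3 counts corresponded to 0.133 and 0.112 CPM, the count scaled to the library total. Of 7 markers of an embryonic kidney line 6 were matched, and all 6 (PAX2, EYA1, KRT8, KRT18, NEFM and UCHL1) were at or above 1 TPM, a count scaled to transcript length and to the sum of the library, in both libraries. Their summed level was 535 and 504 TPM, of which UCHL1 held 397 and 367 TPM. KRT18 was at 58.1 and 47.1 TPM, and NEFM at 45.1 and 56.5 TPM. Lower levels were those of KRT8 (14.25 and 10.5 TPM), EYA1 (12.4 and 15.9 TPM) and PAX2 (7.83 and 6.86 TPM). All 4 markers of the mature nephron were below 1 TPM, with a sum of 0.13 and 0.21 TPM, and UMOD and AQP2 were at 0. Of 5 matched markers of blood and connective tissue cells, PTPRC and CD3E were at 0, and HBB was at 0.12 and 0 TPM. The macrophage gene CD68 was at 1.47 TPM in both libraries, and the collagen gene COL1A1 stood at 24.1 and 20.9 TPM. The 5 genes of the heat response list summed to 2008 and 1895 TPM, of which HSPA8 held 1220 and 1137 TPM. HSPA1B was at 345 and 376 TPM, and HSPB1 at 311 and 237 TPM. DNAJB1 was at 93.95 and 86.4 TPM, and HSPH1 at 38.4 and 58.1 TPM.

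The coding sequences of the family differ in how far they can be told apart by 50-base reads, so stretches that bear on this are shown first. All are from the GRCh37 reference genome, written 5′ to 3′ on the strand of the gene. PABPC3 is an intronless gene, a retrocopy of PABPC1 that is best known from testis. Over 1890 aligned coding bases it was 95.6% identical to PABPC1. The stretch of 60 coding bases with the most differences lies in its only exon, chr13:25670465-25670524 (+ strand), and capitals mark the 11 bases that differ from PABPC1.
PABPC3: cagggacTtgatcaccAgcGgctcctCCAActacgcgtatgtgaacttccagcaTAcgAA
Between PABPC3 and PABPC1, reads over such a stretch can be assigned to PABPC3, while reads from the long identical stretches cannot.

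The other paralogs are far more diverged. To compare PABPC4, PABPC1L and PABPC4L, the 60 aligned coding bases in which the other genes were most like PABPC4 were chosen. They lie near the start of the protein, in PABPC4 at chr1:40041440-40041499 (− strand), PABPC1L at chr20:43538909-43538968 (+ strand) and PABPC4L at chr4:135121994-135122053 (− strand). Each of these stretches lies within 1 coding exon, and capitals mark the bases that differ from PABPC4.
PABPC4: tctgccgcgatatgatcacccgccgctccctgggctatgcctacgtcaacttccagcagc
PABPC1L: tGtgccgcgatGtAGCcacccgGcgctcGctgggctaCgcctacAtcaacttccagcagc
PABPC4L: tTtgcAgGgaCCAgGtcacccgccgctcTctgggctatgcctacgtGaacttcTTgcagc
PABPC1L differed from PABPC4 at 9 of these 60 bases (85.0% identical) and PABPC4L at 11 (81.7% identical), in the stretch chosen as most alike. Over the whole coding sequence PABPC4 was 78.7% identical to PABPC4L, 74.0% to PABPC1 and 70.7% to PABPC1L.

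PABPN1 is known for a run of GCN codons, which encode alanine, right after its start codon, and for the muscular dystrophy that follows when that run is longer. The first 63 coding bases of the reference, in exon 1 at chr14:23790679-23790741 (+ strand), are shown to place this run, with capitals on its 10 GCN codons.
PABPN1: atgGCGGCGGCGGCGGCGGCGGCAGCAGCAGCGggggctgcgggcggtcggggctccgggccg
This is the sequence of the reference genome, and the deposited values hold no sequence of the cell line.

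The PABPN1 locus is also crossed by a readthrough gene, BCL2L2-PABPN1 (chr14:23776042-23795384, + strand), whose transcripts join a coding exon of the apoptosis regulator BCL2L2 to exon 2 of PABPN1. The 50 bases over this junction, 25 from chr14:23789015-23789039 and 25 from chr14:23791390-23791414, were in 0 PABPN1 transcripts of the annotation and are shown because a read over them can belong only to the readthrough gene among the 2. Capitals mark exon 2 of PABPN1.
BCL2L2-PABPN1: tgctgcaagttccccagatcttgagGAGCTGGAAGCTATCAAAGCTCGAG

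PABPC1, the main cytoplasmic poly(A)-binding protein (ENSG00000070756, chr8:101698044-101735037, − strand, 15 exons), stood far above the rest of the family. It was at 4265 TPM in replicate 1 and 4312 TPM in replicate 2, from 58927 and 70052 expected counts, with a mean of 4289 ± 33.3 TPM (SD, n = 2). By TPM it ranked 8 and 3 among the protein-coding genes of the libraries, and by expected count 10 and 9. The protein-coding genes closest to it in log2(TPM + 1) over the 2 libraries were RPL4 (4206 ± 330 TPM), a ribosomal protein, RACK1 (4160 ± 332 TPM), a scaffold protein of the ribosome, and PTMA (4004 ± 171 TPM), which encodes prothymosin alpha.

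TPM divides a count by the length that the quantifier gave the gene, and for PABPC1 that length was short. The abundance-weighted length was 806 bases in replicate 1 and 831 bases in replicate 2, against 2861 bases for the canonical transcript of the annotation, which is 3.55 and 3.44 times longer. With canonical lengths for every gene, the value of PABPC1 came to 1149 and 1200 (1174 ± 36.1, SD, n = 2), ranking 44 and 36 among protein-coding genes. Values with canonical lengths were not rescaled to a common library sum. They are therefore not TPM, and are read only as ranks, ratios and shares. The length assumed for PABPC1 thus differed by over 3-fold, and its rank changed with canonical lengths, while its place at the head of the family was kept.

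PABPC4 (ENSG00000090621, chr1:40026381-40042462, − strand, 16 exons) encodes another cytoplasmic protein, also known as the inducible poly(A)-binding protein of activated T cells. It was at 190 TPM in replicate 1 and 184 TPM in replicate 2, from 5444 and 6320 expected counts, with a mean of 187 ± 3.66 TPM (SD, n = 2). The closest protein-coding genes in level were NDUFA10, RPN2 and SRSF3, all between 184 and 190 TPM in both libraries. With the canonical length of 3142 bases the unrescaled value of PABPC4 was 96.5 and 98.4. Its level in each library was thus a small part of that of PABPC1, which was 22.5 and 23.4 times higher by TPM and 11.9 and 12.2 times higher with canonical lengths.

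PABPC1L (ENSG00000101104, chr20:43538701-43587676, + strand, 15 exons) encodes the poly(A)-binding protein best known from oocytes and early embryos. It was at 37.3 TPM in replicate 1 and 50.2 TPM in replicate 2, from 849 and 1311 expected counts, with a mean of 43.8 ± 9.12 TPM (SD, n = 2). The gene was thus measured clearly above the detection level of 1 TPM in both libraries, with replicate 2 the higher. With canonical lengths the mean of the unrescaled values was 26.2 ± 5.61. On the opposite strand its locus overlaps TOMM34, a mitochondrial import factor gene (1914 and 2150 expected counts). The transcripts of the 2 genes shared 0 sequences of 50 bases on either strand.

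PABPC4L (ENSG00000254535, chr4:135117488-135122944, − strand) has 2 exons, of which 1 is coding, and a coding sequence of 1110 bases against 1980 bases in PABPC4. It was at 1.02 TPM in replicate 1 and 2.64 TPM in replicate 2, from 91 and 268 expected counts, with a mean of 1.83 ± 1.15 TPM (SD, n = 2). Replicate 1 was close to the detection level, and the SD was a large part of the mean.

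PABPC3 (ENSG00000151846, chr13:25670274-25673392, + strand, 1 exon) was at 0.10 TPM in both libraries, from 5.49 and 6.61 expected counts. These are 0.244 and 0.246 CPM, above the floor of 3 counts, but the counts were not whole numbers, since reads were shared with other genes. PABPC3 was the member below 1 TPM in both libraries.

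PABPN1 (ENSG00000100836, chr14:23790666-23795372, + strand, 7 exons), the nuclear protein, was the second most abundant member by TPM. It was at 445 TPM in replicate 1 and 399 TPM in replicate 2, from 5277 and 5531 expected counts, with a mean of 422 ± 32.0 TPM (SD, n = 2). The closest protein-coding genes in level were SNRPC, ARPC3 and TMBIM6, between 405 and 452 TPM. With the canonical length of 1811 bases, 2.59 and 2.53 times the weighted lengths, the unrescaled value of PABPN1 was 164 and 151. By expected count, which is not per length, PABPC4 exceeded PABPN1 in both libraries.

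**Figure D1:**
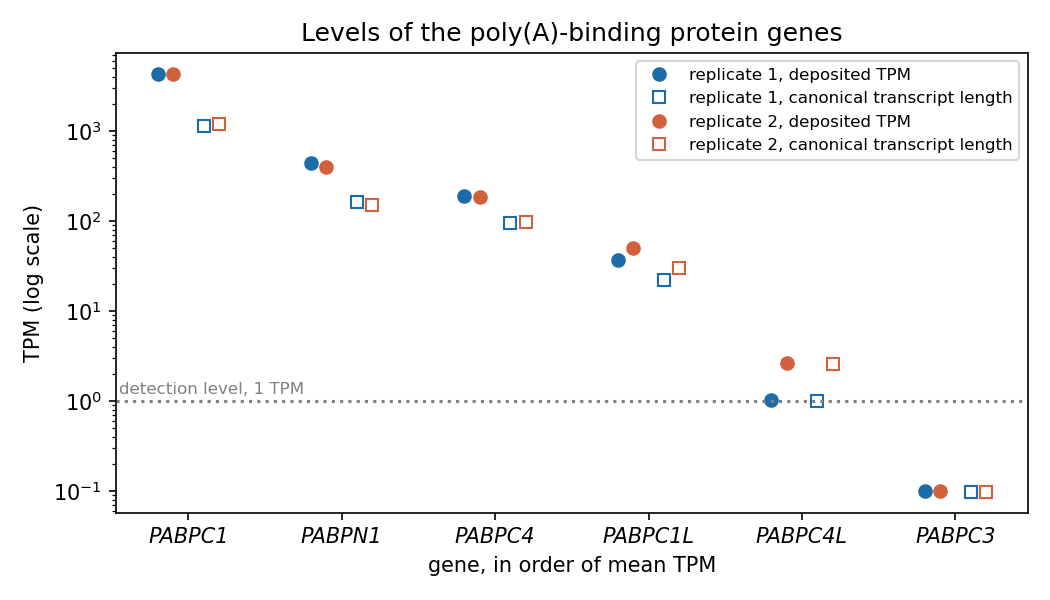
Level of each poly(A)-binding protein gene (vertical axis, log scale) against the gene (horizontal axis), with replicate 1 in blue and replicate 2 in orange. Filled circles show the deposited TPM. Open squares show the value recomputed with the canonical transcript length and not rescaled to a common library sum. PABPC1 is the highest gene on both scales, and PABPC3 lies at 0.10 TPM, below the dotted detection level of 1 TPM.

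The order of the levels was PABPC1, PABPN1, PABPC4, PABPC1L, PABPC4L and PABPC3. The ranges of neighbours over the 2 libraries were separate at every step, by TPM and with canonical lengths. The mean of PABPC1 was 10.2 times that of PABPN1, which was 2.26 times that of PABPC4. PABPC4 was 4.27 times PABPC1L, which was 23.9 times PABPC4L, and PABPC4L was 18.3 times PABPC3. With canonical lengths the step from PABPN1 to PABPC4 was 1.62-fold and the step from PABPC1 to PABPN1 was 7.45-fold. With 2 libraries these are descriptions of the spread, with no test.

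Of the 6 genes, 5 were at or above 1 TPM in both libraries, and 63.8% of all listed protein-coding genes reached that level. Together the 6 genes took 0.494% of the TPM of replicate 1 and 0.495% of that of replicate 2. Of the expected counts they took 0.313% (95% exact Clopper-Pearson interval 0.311% to 0.316%) and 0.310% (0.308% to 0.313%), with intervals that cover counting error only. PABPC1 made up 86.4% of the summed TPM of the 6 genes in replicate 1 and 87.1% in replicate 2 (86.8% ± 0.54, SD, n = 2). With canonical lengths the share was 80.6%, and with PABPN1 left out, so that the cytoplasmic genes alone were counted, it was 94.9%.

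Of the other cytoplasmic genes, PABPC4 held 3.84% and 3.72% of the family's TPM and PABPC1L held 0.756% and 1.01%. The nuclear gene held 9.0% and 8.1%. PABPC4L and PABPC3 together stayed below 0.1% in each library.

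Sequence sharing bears on these values, since reads from identical stretches have to be divided between genes. Of the distinct 50-base sequences in the PABPC3 transcript, 226 of 3070 (7.36%) were also in PABPC1, where they made up 2.11% of 10687. ENSG00000289006, a gene of the newer annotation, held 2041 of the 3070 (66.5%) on either strand. That gene is not among the listed genes, so no count is given for it and the posterior SD does not cover it. With shorter sequences of 36 and 25 bases, 13.1% and 22.0% of the PABPC3 transcript was also in PABPC1. The posterior SD that the quantifier gave for dividing reads was 0.81 and 0.86 counts for PABPC3, 14.8% and 13.0% of its count. The counting error of so few reads was larger, at 42.7% and 38.9% of the count.

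For PABPC1 the posterior SD was 1.91 and 2.21 counts, 0.0032% of its count in both libraries. That SD concerns the count and not the TPM, which also depends on the length given to the gene. The TPM of PABPC1, 4265 and 4312, lay above the upper bound that the quantifier gave, 4193 and 4252 TPM. PABPC1L shared 0.558% of its 50-base sequences with another listed gene, and PABPC4L shared 0 of 4936. PABPC4 shared 11.0%, most of it with PABPC4-AS1 (975 of 11165 sequences), a gene on the opposite strand that held 0 and 3.4 counts. The posterior SD of PABPC4 was 0.48 and 0.90 counts.

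PABPN1 shared the most, with 1400 of its 3822 sequences (36.6%) also in BCL2L2-PABPN1. The quantifier assigned 148 and 226 counts to the readthrough gene, which stood at 7.04 and 9.70 TPM. These were 2.72% (95% exact interval 2.31% to 3.20%) and 3.93% (3.44% to 4.46%) of the joint count of both genes. The posterior SD was 19.8% and 16.7% of the count of BCL2L2-PABPN1 but 0.51% and 0.58% of that of PABPN1. The readthrough count was thus far less certain than that of PABPN1, and giving all of it to PABPN1 would add less than 5% to PABPN1.

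**Figure D2:**
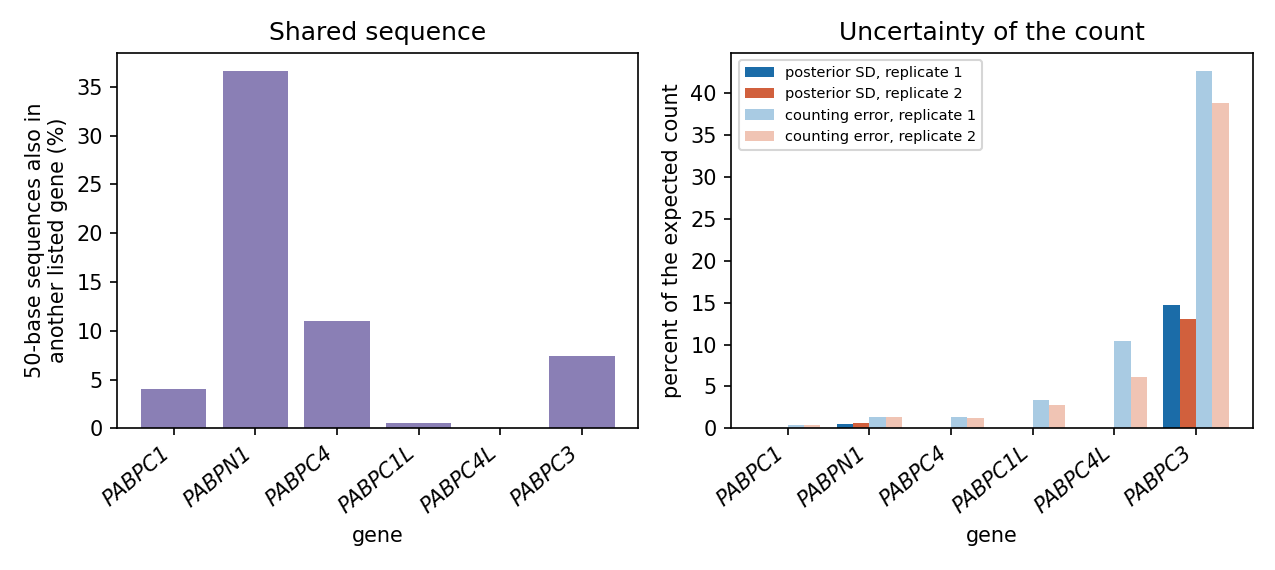
The left panel shows, for each gene, the percent of the distinct 50-base sequences of its transcripts that were also in another listed gene, and the right panel shows the posterior SD and the counting error (square root of the count) as percent of the expected count in replicate 1 and replicate 2. PABPN1 has the highest shared percent at 36.6%, and PABPC3 has the largest posterior SD (14.8% and 13.0%) and counting error (42.7% and 38.9%).

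Another 21 listed genes whose symbols begin with PABP were examined, among them 14 pseudogenes, 4 protein-coding genes and 3 long noncoding RNA genes. Of these, 12 were at 0 counts in both libraries, including the protein-coding genes PABPN1L, PABPC1L2A and PABPC1L2B, and PABPC5 had 1 and 0 counts. A count of 0 allows up to 3 counts by counting error alone. The 3 with 10 or more counts over both libraries were all processed pseudogenes. PABPC1P3 had 12.1 and 18.2 counts, PABPC1P1 had 6.05 and 9.08, and PABPN1P1 had 2.13 and 13.1. The 21 genes together amounted to 0.0388% and 0.0639% of the counts of the 6 members.

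The libraries were then compared with each other, gene by gene, to describe how far each level differed between them. With 1 group there was no test between conditions, and a p-value here compares 2 libraries of the same treatment. The exact binomial p-value allows for counting error only, so a small difference in a gene with many counts can be called. Of all 19714 genes whose counts summed to at least 10, 42.2% were called different between the libraries (exact binomial test on rounded expected counts, Benjamini-Hochberg adjusted p under 0.05). Of the 6 members, 5 were called, 2 higher in replicate 2 and 3 higher in replicate 1, in a background of genes of which 22.1% and 20.1% were called in these directions. Among genes whose counts summed to at least 100 the share called was 55.3%.

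PABPC4L differed the most, at 4.04 CPM in replicate 1 and 9.97 CPM in replicate 2. Its scaled count was higher in replicate 2 by 1.27 ± 0.17 on the log2 scale (counting SE, adjusted exact binomial p = 1.4e-13). PABPC1L followed with 37.7 and 48.8 CPM, higher in replicate 2 by 0.34 ± 0.064 (adjusted exact binomial p = 2.8e-07). PABPN1 was at 234 and 206 CPM and was lower in replicate 2, with a log2 ratio of -0.21 ± 0.028 (adjusted exact binomial p = 1.3e-13).

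The genes with the highest counts differed little. PABPC1 was at 2616 and 2605 CPM, with a log2 ratio of -0.032 ± 0.0081 (adjusted exact binomial p = 0.000235). By TPM it was 1.01 times higher in replicate 2, so its direction differed between the scaled counts and the TPM, and with library totals as the scaling its log2 ratio was -0.0057 (adjusted exact binomial p = 0.634). PABPC4 was at 242 and 235 CPM, with a log2 ratio of -0.067 ± 0.027 (adjusted exact binomial p = 0.032). PABPC3 had a log2 ratio of 0.17 ± 0.80 and was not called (adjusted exact binomial p = 1.0).

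The ratio between the libraries moved with the GC content of the genes. Over 13544 genes whose counts summed to at least 100, the log2 ratio and the GC percent had a Pearson r of -0.64 and a Spearman rho of -0.72, a description across genes, which share the 2 libraries and are not replicates. PABPC4L had the lowest GC content of the family at 33.6%, followed by PABPC3 at 39.5% and PABPC1 at 44.8%. PABPC4 stood at 49.1%, PABPN1 at 54.2% and PABPC1L at 55.8%.

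With the median GC trend removed, 26.8% of the genes tested were called, and of the family PABPC1 and PABPC1L. The log2 ratio of PABPC4L was then 0.33 (adjusted exact binomial p = 0.16), that of PABPN1 was -0.059 (adjusted p = 0.11 by the same exact test) and that of PABPC4 was -0.0056 (adjusted p = 0.94 by the same exact test). PABPC1L moved to 0.54 (adjusted exact binomial p = 1.7e-16), further from 0, and PABPC1 to -0.15 (adjusted p = 2.1e-71 by the same exact test). The calls of PABPC4L, PABPN1 and PABPC4 were thus lost with the trend removed, and those of PABPC1L and PABPC1 were not. When a biological coefficient of variation of 0.1 was assumed in the edgeR exact test, PABPC4L was called (adjusted p = 0.000115, edgeR exact test) and the other 5 were not, with 7.69% of all genes called. The common coefficient that edgeR estimated from both libraries taken as replicates was 0.202, larger than the assumed value. PABPC4L was also the member called with an absolute log2 ratio of 1 or more, which held for 5.73% of the genes tested.

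**Figure D3:**
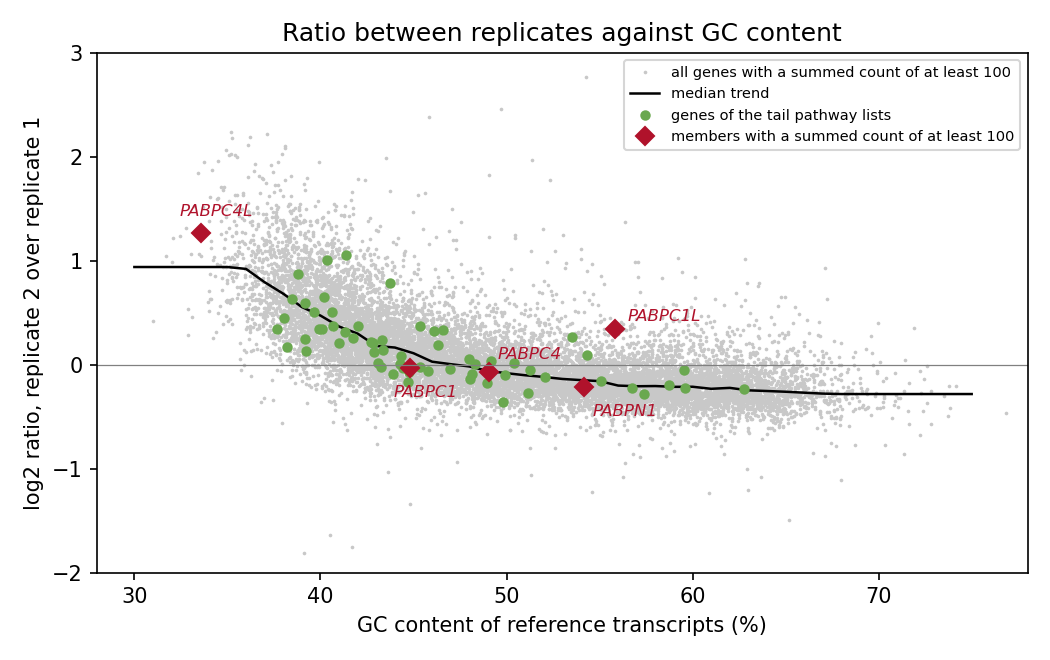
Log2 ratio of replicate 2 over replicate 1 (vertical axis, TMM-scaled counts) against the GC percent of the reference transcripts (horizontal axis), with grey points for all genes whose counts summed to at least 100, green points for genes of the 3 tail pathway lists, red diamonds for 5 members and a black line for the median trend. PABPC4L, at 33.6% GC, lies at 1.27 near the raised left end of the trend, and PABPC1L, at 55.8% GC, lies at 0.34 above it.

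The genes that work with poly(A)-binding proteins were read from 3 lists, 64 genes in all. Of these, 63 were at or above 1 TPM in both libraries, beside 63.8% of protein-coding genes and 26.3% of all listed genes. Among the 63 tested, 43 were called different between the libraries, 29 higher in replicate 2 and 14 higher in replicate 1 (68.3%, beside 42.2% of all genes tested and 55.3% of those with at least 100 counts). With the GC trend removed the number was 31 of the 63, beside 26.8% of all genes tested and 4683 of 13544 genes with at least 100 counts. Of the 31, 14 were higher in replicate 2 and 17 higher in replicate 1, so the balance between the directions turned with the GC trend.

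The first list held 23 partner genes, such as those of translation initiation and termination factors and of proteins with the PAM2 motif. Not all of these partners contact the cytoplasmic proteins directly. All 23 were detected, with a median of 98.8 TPM in replicate 1 and 149 TPM in replicate 2. The RNA helicase gene EIF4A1 was the highest at 1395 and 1230 TPM, followed by EIF4G1, the scaffold that binds poly(A)-binding protein, at 601 and 557 TPM, and EIF4B, a helicase cofactor, at 534 and 492 TPM. PABPC1 was 3.06 and 3.51 times higher than EIF4A1 and 7.10 and 7.75 times higher than EIF4G1 by TPM, and 1.67 and 1.96 times and 4.52 and 5.16 times higher with canonical lengths.

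The lowest partner was GSPT2, a termination factor paralog, at 2.08 and 1.98 TPM. Of the 23 partners, 16 (69.6%) were called between the libraries, 9 higher in replicate 2 and 7 in replicate 1, beside 42.2% of all genes and 55.3% of those with at least 100 counts, with a median log2 ratio of 0.037 beside 0.021 over all genes tested. LARP4, which binds poly(A) and PABPC1, had the largest ratio towards replicate 2, with 25.3 and 47.6 TPM and a log2 ratio of 0.87, or 0.29 after removal of the GC trend. EIF4A1 had the largest ratio towards replicate 1, at -0.27.

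The second list held 17 genes of deadenylation and tail decay, the enzymes and scaffolds that shorten or mark the tail. All 17 were detected, with a median of 46.7 and 49.8 TPM. CNOT1, the scaffold of the CCR4-NOT deadenylase, was the highest at 280 and 300.2 TPM, followed by its subunits CNOT3 (128 and 117 TPM) and CNOT11 (108 and 120 TPM). PABPC1 was 15.2 and 14.4 times higher than CNOT1 by TPM. PAN3, the subunit through which the PAN2-PAN3 deadenylase is brought to poly(A)-binding protein, was the lowest at 8.93 and 11.9 TPM.

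Of the 17 genes, 9 (52.9%) were called between the libraries, 8 higher in replicate 2 and 1, CNOT3, higher in replicate 1, with a median log2 ratio of 0.052. This share was close to the 55.3% among all genes with at least 100 counts. After removal of the GC trend 6 of the 17 were called, 2 higher in replicate 2 and 4 higher in replicate 1. Beside these stood 26.8% of all genes and 4683 of 13544 genes with at least 100 counts. TUT7, a terminal uridylyltransferase that adds uridines to short tails, had the largest ratio, with 13.4 and 32.0 TPM and a log2 ratio of 1.00, which was 0.56 with the trend removed.

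The third list held 24 genes grouped under cleavage and polyadenylation. Many of them, but not all, help to make the tail in the nucleus. Of the 24 genes, 23 were detected, with a median of 44.4 and 51.8 TPM over the list. NUDT21, a subunit of cleavage factor I, was the highest at 154 and 175 TPM, followed by CPSF7, its partner, at 137 and 140 TPM, and the poly(A) polymerase gene PAPOLA at 86.5 and 141 TPM. The testis poly(A) polymerase gene PAPOLB, the gene not detected, had 1 and 3 counts. PABPN1, which stimulates poly(A) polymerase, was at 445 and 399 TPM, above each of the 24 genes in both libraries.

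Of the 23 tested, 18 (78.3%) were called, 12 higher in replicate 2 and 6 in replicate 1, beside 42.2% of all genes and 55.3% of those with at least 100 counts. The median log2 ratio was 0.17, beside 0.021 over all genes and -0.018 over those with at least 100 counts. After removal of the GC trend the median was -0.035, and 11 of the 23 were called, 3 higher in replicate 2 and 8 in replicate 1. Beside these stood 26.8% of all genes tested, and 4683 of 13544 genes with at least 100 counts (2276 and 2407 in these directions). RBBP6, a subunit of the cleavage machinery, had the largest ratio towards replicate 2, with 34.8 and 62.7 TPM and a log2 ratio of 1.06, which was 0.75 with the trend removed. CLP1 had the largest ratio towards replicate 1, at -0.36, with 10.4 and 7.69 TPM.

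**Figure D4:**
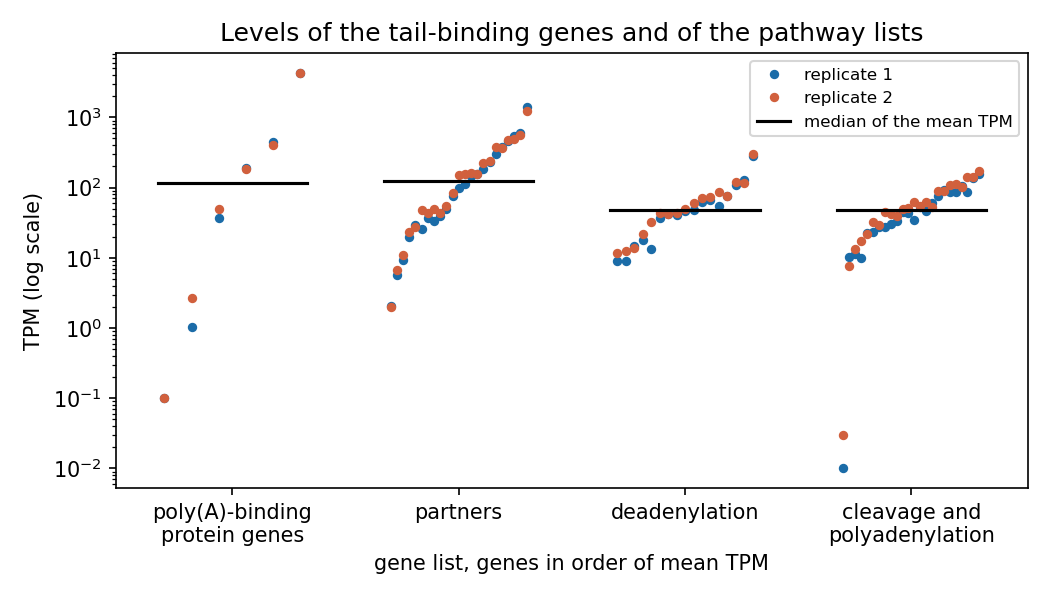
TPM (vertical axis, log scale) of the 6 poly(A)-binding protein genes and of the genes of each pathway list, ordered by mean TPM within a list, with replicate 1 in blue, replicate 2 in orange and a black line at the median of the mean TPM. PABPC1, at 4265 and 4312 TPM, lies above all genes of the 3 lists, whose highest value is EIF4A1 at 1395 TPM.

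Promoter windows of 250 bases before to 50 bases after the start site, from the RefSeq table, were held for 3 members, PABPC1L, PABPC4L and PABPN1, in 4 windows. The letters GAANNTTC, a short form of the element bound by heat shock factors, and a longer form, the same letters followed by any 2 bases and GAA, were searched on both strands. The short form was in 6.77% and the longer form in 0.490% of 35116 windows, and 0 of the 4 member windows held either. This says only that those letters were not in these windows. No window was held for PABPC1, PABPC3 and PABPC4.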

How the data were processed

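Poly(A)+ RNA of 2 HEK293T libraries, 1 group in the labels, was quantified by the authors. The submitters' processing notes name Trimmomatic 0.36, STAR 2.6.1c, RSEM 1.3.1 and GRCh37.p13 (hg19), whereas the methods name featureCounts with Ensembl release 87. The labels give the molecule as genomic DNA, but their protocol describes poly(A)+ RNA. The heating time is that of the labels, and the study's text gives a longer heating for an earlier recovery time. The sources used here do not give the strand setting of RSEM. The deposited tables hold expected counts, in which RSEM shared multi-mapped reads, TPM and FPKM scaled to effective length by the authors, and posterior means, SDs and bounds. A deposited pooled table gave the authors' pooled values.

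Symbols, positions, canonical lengths and GC content came from GENCODE release 44 mapped to GRCh37, in which 96.1% of identifiers were matched. Detection was at least 1 TPM in both libraries. Expected counts were rounded, and an exact two-sided binomial test conditional on the summed count was run per gene, with library shares from TMM factors (edgeR 4.0.16) and Benjamini-Hochberg adjustment over genes whose counts summed to at least 10. Log2 ratios used a pseudocount of 0.5 count. The GC trend was the median in 50 classes. Fits were tested on simulated data. The simulated counts held counting error only, without further variation between libraries and without a GC trend, so that test does not cover these. DESeq2 1.42.0 gave size factors as an alternative, besides library totals, other count minimums, posterior means and an edgeR exact test. Canonical lengths and the share without PABPN1 were added after seeing the data. The canonical length replaced the length of each gene in its TPM, and the results were not rescaled to a common library sum. Coding sequences were aligned with Biopython 1.88 and transcripts compared as 50-base sequences.

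The members, lists and tests were chosen with earlier results of these data known, although the rule for the members uses symbols and no measured value. Named were the 6 members, other PABP genes with 10 or more counts and, of the genes overlapping a member, TOMM34, PABPC4-AS1 and BCL2L2-PABPN1. From each list came the 3 highest genes, the lowest and the largest ratio in each direction (summed count of at least 100). The 3 protein-coding genes nearest in level to PABPC1, PABPC4 and PABPN1 were also named. Genes at 0 named here were singled out after their values were seen. A gene on the Y chromosome was not used.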

Additional observations from a re-analysis of the deposited data

How the results depend on the processing

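No paired analysis was possible because the 2 libraries belong to 1 group. Detection gave 5 members with either replicate left out, 6 at 0.1 TPM, and 4 at 5 TPM and by FPKM. With unrescaled values at canonical lengths 5 members were at 1 or above. Those values are not TPM, so this is not read as detection, and PABPC4L in replicate 1 was at 1.01. PABPC1's share of member TPM was 86.4% to 87.1% without a replicate, 83.7% by expected counts, 80.6% with canonical lengths and 94.9% without PABPN1. Of the members, 5 were called between the libraries, 3 with library totals, 2 with the GC trend removed, 1 in the edgeR exact test with an assumed coefficient of variation of 0.1 and 1 with an absolute log2 ratio of 1 or more. Of the tail pathway genes, 43 were called, 6 in that edgeR exact test and 2 with that minimum ratio, and 31 to 44 under the other alternatives. Over all genes tested, the share called was 42.2% in the main test and 26.8% with the GC trend removed. It was 7.69% in that edgeR exact test and 5.73% with that minimum ratio, and no such share is given here for the other settings. The log2 ratio of PABPC3 was 0.17, but -0.34 with the GC trend removed and -0.062 from posterior mean counts. Among the 5 values called in the main test, PABPC1 (library totals), PABPN1 and PABPC4L (GC trend removed) and PABPC4 (library totals, GC trend removed, posterior mean counts, a summed count of at least 1) lost the call in these settings, and all but PABPC4L lost it in the edgeR exact test. The cause of these changes was not tested. Depth limits PABPC3, at 5.49 and 6.61 counts, and PABPC4L in replicate 1, at 91 counts. The posterior mean TPM of PABPC1 was 4163, below the estimate of 4289.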
